A study of Populus tremula x Populus alba with 4 samples.

Results

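MYB134, MYB115 and MYB182 are 3 of the 41335 genes counted in bark of a hybrid poplar, Populus tremula x Populus alba, of the clone INRA 717-1B4. They were taken by gene ID: MYB134 as Potri.006G221800.1, MYB115 as Potri.002G173900.1 and MYB182 as Potri.004G088100.1, and all 3 were in the files. The 4 paired-end RNA sequencing libraries came from bark of MIR15 transgenic plants (2 libraries) and of wild-type (WT) plants of the same clone (2 libraries). Plants were raised aseptically, with kanamycin where needed, and then moved to soil in a growth chamber. The labels call the 2 samples of a group biological replicates. They give no plant age, no description of what the MIR15 construct carries or which promoter drives it, and no statement on whether the MIR15 samples represent different transformation events. The study asked how transcript levels in MIR15 bark differ from those in WT bark.

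Condensed tannins, also called proanthocyanidins, are flavonoid polymers that poplars lay down in bark, leaves and roots, and they are known for their part in defence. Their synthesis is switched on by R2R3 MYB proteins that act together with a bHLH and a WD40 protein on the promoters of flavonoid genes. MYB134 and MYB115 are the known activators of this kind in poplar, and plants that overexpress either one accumulate tannins. MYB182 is a repressor of the same protein family that lowers the activity of tannin and anthocyanin genes.

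All 3 regulators gave reads in every bark library, and no difference between MIR15 and WT passed the test for any of them. MYB134 was nearly constant, with levels within 1.11-fold of each other in all 4 libraries. MYB115 had about 0.753 times its WT level in MIR15, but the interval of that difference included 1. The repressor MYB182 had almost equal means in the genotypes and differed most between the libraries of a genotype. The read ratio of activators to repressor differed more within each genotype than between the genotype means. For MYB115 within MIR15, these differences were almost equal. Levels are given in CPM, which is the total gene reads of a gene scaled to the size of its library after TMM. They are not divided by gene length, because no length was used here. The level of one gene therefore cannot be set against that of another, and ratios between genes are read only for how they move between libraries. In bulk bark, fewer cells of a type and less RNA per cell cannot be told apart.

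The libraries held 68453851 to 82789893 total gene reads. The 3 genes collected 13027 (MYB134), 1414 (MYB115) and 2237 (MYB182) reads over the 4 libraries. Of these, 0, 1 and 1 reads matched more than 1 place, so reads shared with near-identical copies played almost no part in the totals. Over the whole table, 1 of 30975 tested genes was called, at an adjusted p under 0.05 in edgeR's quasi-likelihood test. The markers listed for bark tissues were name patterns, which the IDs could not fill, so the tissue label was not checked.

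MYB134, the activator with most reads of the 3, had 2816 and 2929 reads in MIR15 replicates 1 and 2, and 3641 and 3641 reads in WT replicates 1 and 2. The equal WT counts are of libraries that differ in total and in other genes. In scaled terms MYB134 stood at 41.9 and 41.8 CPM in MIR15, against 44.2 and 46.4 CPM in WT. Both MIR15 libraries lay below both WT libraries, by a small margin. The mean level was 41.8 ± 0.0214 CPM in MIR15 and 45.3 ± 1.59 CPM in WT (SD, n = 2 each). The MIR15 SD is far smaller than the counting error of its libraries, so it does not measure the spread between plants. The log2 fold change of MIR15 over WT was -0.11 ± 0.14 (SE), or 0.923-fold with a 95% interval from 0.741 to 1.15, and the adjusted p from edgeR's quasi-likelihood test was 1.00 (unadjusted p = 0.423). A log2 fold change of larger size was found in 55.7% of tested genes.

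MYB115, the second activator, had far fewer reads, with 271 and 283 in MIR15 and 399 and 461 in WT. Its level was 4.03 and 4.04 CPM in MIR15, against 4.84 and 5.88 CPM in WT. The groups did not overlap, and the WT libraries differed from each other more than the MIR15 libraries did. The mean level was 4.04 ± 0.00931 CPM in MIR15 and 5.36 ± 0.733 CPM in WT (SD, n = 2 each). The MIR15 SD is far smaller than the counting error of its libraries, so it does not measure the spread between plants. The log2 fold change was -0.41 ± 0.23 (SE), or 0.753-fold with a 95% interval from 0.514 to 1.10. MYB115 did not pass edgeR's quasi-likelihood test, with an adjusted p of 1.00 and an unadjusted p of 0.123. Without WT replicate 2 the value was -0.26 on the log2 scale, and 15.4% of all tested genes had a larger log2 fold change in size.

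MYB182, the repressor, had 575 and 444 reads in MIR15 and 788 and 430 reads in WT. These correspond to 8.55 and 6.34 CPM in MIR15, against 9.56 and 5.48 CPM in WT. The WT libraries were the highest and the lowest of the 4, and both MIR15 libraries lay between them. The mean level was 7.44 ± 1.56 CPM in MIR15 and 7.52 ± 2.89 CPM in WT (SD, n = 2 each). The log2 fold change was -0.02 ± 0.30 (SE), or 0.989-fold, and edgeR's quasi-likelihood test gave it an adjusted p of 1.00 and an unadjusted p of 0.959. The 95% interval ran from 0.603-fold to 1.62-fold, so a difference of moderate size in either direction was not excluded by these libraries. The sign rested on single libraries: without WT replicate 1 the log2 fold change was 0.44, and without MIR15 replicate 2 it was 0.19.

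**Figure D1:**
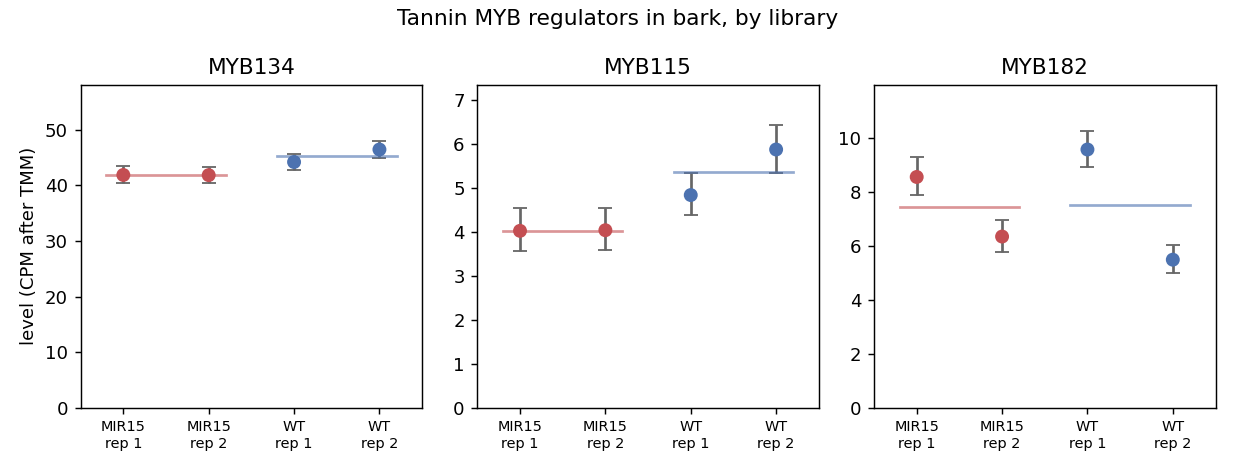
Level of MYB134, MYB115 and MYB182 in each library, in CPM after TMM scaling, on axes that start at 0; points are libraries (MIR15 red, WT blue), bars are exact 95% Poisson intervals of the reads, and horizontal lines are group means. MYB134 lies between 41.8 and 46.4 CPM in all 4 libraries, MYB115 is near 4 CPM in both MIR15 libraries and higher in both WT libraries, and MYB182 has its highest and lowest values in WT.

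Thus 0 of the 3 regulators were called by edgeR, where 0.00323% of all tested genes were called. None had an unadjusted p under 0.05 in edgeR, as 2.47% of tested genes did, and DESeq2 called none of them either, against 0.0504% of the genes to which it gave an adjusted p. In 2 of the 3 regulators, MYB134 and MYB115, both MIR15 libraries lay below both WT libraries. The same held for 12.7% of all tested genes.

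**Figure D2:**
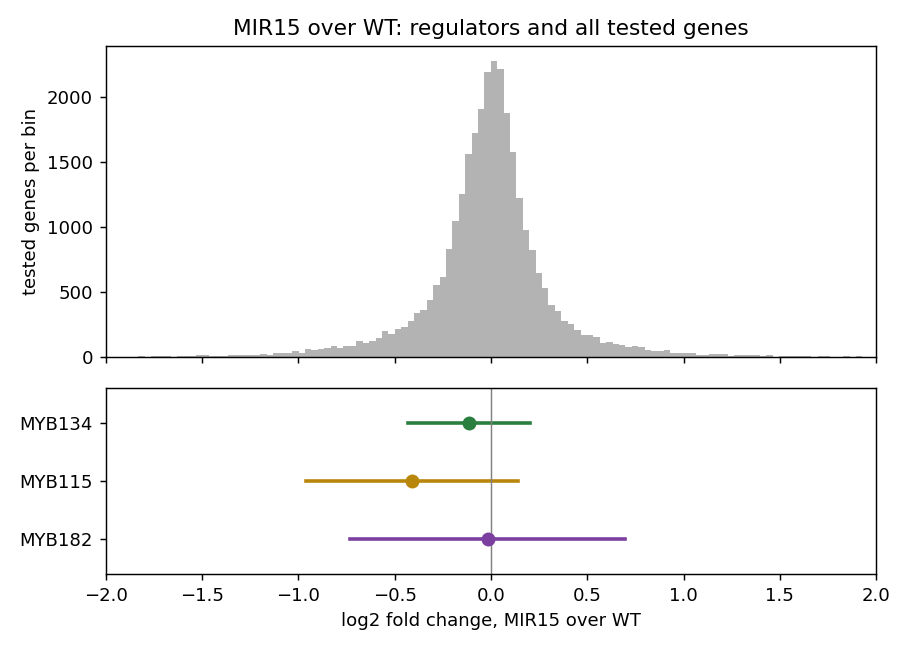
Log2 fold change of MIR15 over WT. The upper panel counts all tested genes per bin, leaving out those beyond the axis, and the lower panel gives each regulator's value (point) with its 95% interval from edgeR (line); the values are -0.11 for MYB134, -0.41 for MYB115 and -0.02 for MYB182, and each interval includes 0.

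The balance of activators to repressor was measured inside each library, where it does not depend on how libraries are scaled. The ratio of MYB134 reads to MYB182 reads was 4.90 and 6.60 in MIR15 replicates 1 and 2, and 4.62 and 8.47 in WT replicates 1 and 2. The WT values were the lowest and the highest, and their exact 95% counting intervals, 4.28 to 4.997 and 7.66 to 9.38, did not overlap. In MIR15 the intervals, 4.48 to 5.37 and 5.97 to 7.31, were also separate. These intervals cover counting error and not the spread between plants. The mean log2 ratio was 2.51 ± 0.30 in MIR15 and 2.64 ± 0.62 in WT (SD, n = 2 each). The difference of -0.14 had a two-sided exact permutation p of 1.00, and 2 against 2 libraries cannot give a p below 0.333.

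For the activator with fewer reads, the ratio of MYB115 reads to MYB182 reads was 0.471 and 0.637 in MIR15, against 0.506 and 1.07 in WT. WT replicate 2 had the highest ratio and held about as many MYB115 as MYB182 reads, with a counting interval from 0.938 to 1.23; with 2 libraries per group, whether it is unusual among WT plants was not tested. The mean log2 ratio was -0.87 ± 0.31 in MIR15 and -0.44 ± 0.76 in WT (SD, n = 2 each), and the difference of -0.43 had an exact permutation p of 0.667. Without WT replicate 2 the difference turned to 0.11. With both activators summed, the ratio to MYB182 was 5.37 and 7.23 in MIR15 and 5.13 and 9.54 in WT. The difference in mean log2 ratio was then -0.17 (exact permutation p = 1.00), and it turned to 0.28 without WT replicate 2 and to 0.05 without MIR15 replicate 1. The MYB134 ratio turned in the same cases, to 0.30 and 0.08.

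The ratio of the activators to each other was looked at after the values were seen. MYB115 had 0.0962 and 0.0966 reads per MYB134 read in MIR15, and 0.110 and 0.127 in WT. The MIR15 values were almost equal and lay below both WT values, but the counting intervals of MIR15 replicate 2 (0.0852 to 0.109) and WT replicate 1 (0.0986 to 0.122) overlapped. The difference in mean log2 ratio was -0.29, or 0.819-fold, with an exact permutation p of 0.333, the smallest that this design allows. This ratio moved over the 4 libraries by 1.32-fold, against 1.83-fold for MYB134 to MYB182 and 2.27-fold for MYB115 to MYB182.

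**Figure D3:**
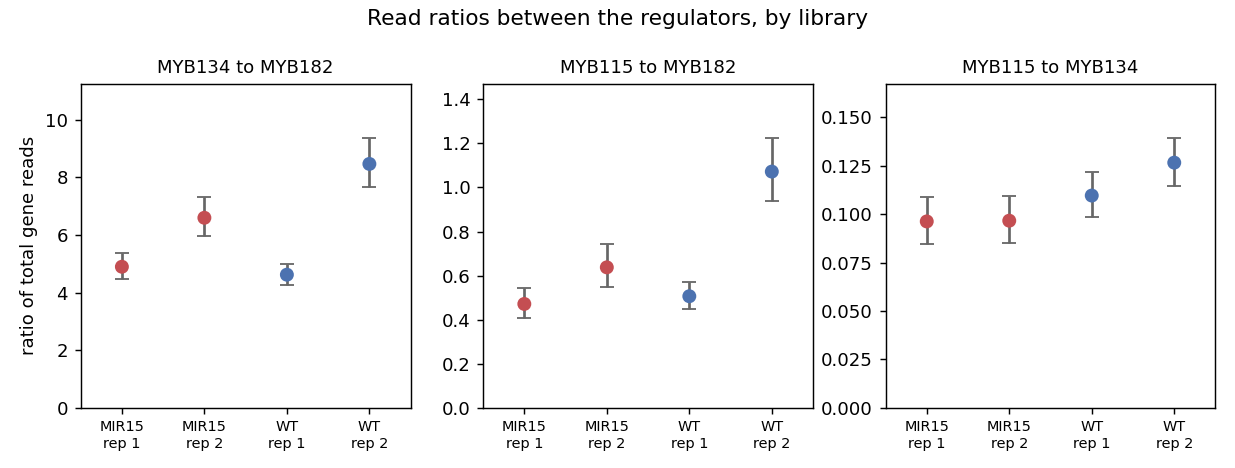
Ratio of total gene reads between regulators in each library (MIR15 red, WT blue), on axes that start at 0; bars are exact 95% intervals from the conditional binomial distribution and cover counting error only. The MYB134 to MYB182 ratio runs from 4.62 to 8.47, both in WT, while the MYB115 to MYB134 ratio stays between 0.0962 and 0.127.

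Replicate spread differed between the activators and the repressor. In scaled reads, MIR15 replicate 1 had 1.00 times the MYB134 level of replicate 2 (counting interval 0.9499 to 1.05), and in WT this ratio was 0.952 (0.909 to 0.997). For MYB115 the ratio of replicate 1 to replicate 2 was 0.997 in MIR15 (0.841 to 1.18) and 0.824 in WT (0.719 to 0.944). MYB182 gave 1.35 in MIR15 (1.19 to 1.53) and 1.74 in WT (1.55 to 1.97), the largest ratios of the 3 genes in both genotypes. For comparison, the median size of the difference between replicates over the 30841 tested genes with reads in every library was 1.19-fold in MIR15 and 1.17-fold in WT. Among these genes, 99.7% differed more than MYB134 and 98.9% more than MYB115 between the MIR15 libraries. Between the WT libraries 81.8% differed more than MYB134, 42.6% more than MYB115 and 11% more than MYB182, and between the MIR15 libraries 27.9% differed more than MYB182. The genes compared were not matched for read number, and those with few reads carry more counting error. The shares are therefore no measure of how stable a regulator is.

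The enzymes that these regulators act on were represented by 21 IDs, recalled from what is generally known of poplar gene models, for the steps from chalcone synthase to the leucoanthocyanidin and anthocyanidin reductases of tannin synthesis. No annotation was used here to check them, and single IDs carry no enzyme name. Of the 21, 20 passed the filter on low counts, and the other had 1 read in all 4 libraries together. None of the 20 was called by edgeR, none had an unadjusted p under 0.05, and none was called by DESeq2. The log2 fold changes ran from -0.22 to 0.20, with 12 above 0 and 8 below, and had a median of 0.04, where the median over all tested genes was -0.00083. In every one the MIR15 and WT libraries overlapped, while in 25.1% of all tested genes they did not. In 6 of the 20, more than 5% of reads matched more than 1 place, up to 61.7%, so the totals of single members are uncertain.

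Across libraries, most of the listed IDs were ordered like the repressor MYB182 and not like the activators. Their summed level was 3053 and 2104 CPM in MIR15 replicates 1 and 2, and 3566 and 1527 CPM in WT replicates 1 and 2. From high to low the libraries ran WT replicate 1, MIR15 replicate 1, MIR15 replicate 2, WT replicate 2, which is the order of MYB182. This order held for 15 of the 20 IDs and for 4.89% of all tested genes. With more than 5% of reads matching more than 1 place in 6 of the 20, the IDs are not independent of each other. The count of 15 was not repeated in unique reads. In 19 of the 20, replicate 1 was above replicate 2 in both genotypes, as in MYB182 and in 27.1% of all tested genes; replicate numbers are those of the titles, the file headers number the MIR15 libraries differently (2 and 3), and no label says that libraries with the same number share an origin. The median ratio of replicate 1 to replicate 2 over the list was 1.53 in MIR15 and 2.42 in WT, against 1.35 and 1.74 for MYB182.

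Per unit of MYB182 level, the summed level of the list was 357 and 332 in MIR15, and 373 and 278 in WT, so it moved by 1.34-fold over the 4 libraries. Per unit of MYB134 level it was 72.9 and 50.3 in MIR15, and 80.7 and 32.9 in WT, a range of 2.46-fold. Per unit of MYB115 level it was 758 and 521 in MIR15 and 736 and 259.6 in WT, a range of 2.92-fold. The list sum itself ranged 2.34-fold. WT replicate 2, which had the highest activator levels and the lowest MYB182 level, had the lowest level of the listed IDs. These comparisons between list and regulators were chosen after the values were seen, rest on 4 libraries and carry no test. In unique reads the list sum had the same order, with a CPM, without TMM, of 2839 and 2021 in MIR15 and 3398 and 1519 in WT.

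**Figure D4:**
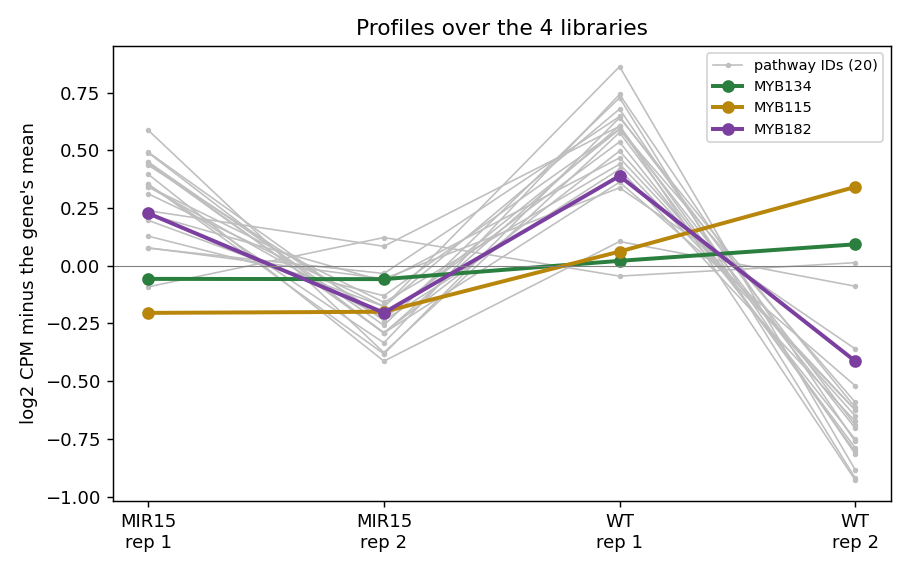
Log2 CPM of each gene minus its mean over the 4 libraries, for the 20 listed pathway IDs (grey) and the 3 regulators (coloured); lines join the values of 1 gene and imply no order. Most pathway IDs and MYB182 are highest in WT replicate 1 and lowest in WT replicate 2, while MYB134 stays near 0 and MYB115 is highest in WT replicate 2.

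The listed ID with most reads was Potri.001G113100.1, with 427 and 305 CPM in MIR15 and 551 and 196 CPM in WT. That with the smallest p was Potri.003G176900.1, with 129 and 77.7 CPM in MIR15 and 122 and 57.4 CPM in WT. Its log2 fold change was 0.20, for which edgeR gave an unadjusted p of 0.604. Leaving out single libraries moved the median of the list from 0.04 to 0.78 without WT replicate 1, -0.41 without WT replicate 2, -0.29 without MIR15 replicate 1 and 0.24 without MIR15 replicate 2. A further pair of IDs had been noted as possible relatives of the regulators, also unchecked. Potri.010G114000.1 had 4.70 and 2.53 CPM in MIR15 and 5.21 and 2.33 CPM in WT. Potri.008G128500.1 had 1.11 and 0.800 CPM in MIR15 and 1.46 and 0.510 CPM in WT, and so both had the library order of MYB182. Counting intervals were not computed for this pair.

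**Figure D5:**
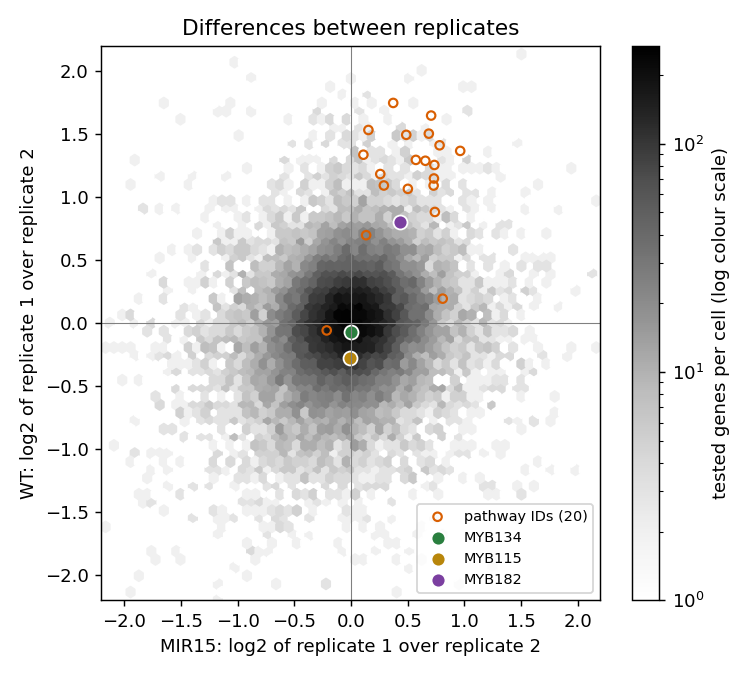
Difference between replicates 1 and 2 on the log2 scale, MIR15 on the horizontal and WT on the vertical axis, for all tested genes within the axes (grey, log colour scale), the 20 listed pathway IDs (open circles) and the regulators (filled). MYB182 and 19 of the 20 pathway IDs lie above 0 on both axes, and MYB134 and MYB115 lie near 0 in MIR15 and below 0 in WT.

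Likeness of profile was measured as the root-mean-square difference of log2 CPM over the 4 libraries, after each gene was centred on its own mean, among genes whose mean reached 5 CPM. MYB115, with a mean of 4.70 CPM, was placed in these orders as if it belonged to them. In the order of likeness to MYB134, MYB115 stood at place 11197 of 20098 and MYB182 at place 18716. In the order for MYB115, MYB134 stood at place 1865 of 20099 and MYB182 at 18960. In the order for MYB182, MYB134 stood at 10935 of 20098 and MYB115 at 17261. The activators were thus nearer to each other than either was to the repressor, with differences of 0.162 between them, 0.351 between MYB134 and MYB182, and 0.464 between MYB115 and MYB182. The 20 pathway IDs had a median place at 8.68% of the order for MYB182, at 97.9% of that for MYB134 and at 98.4% of that for MYB115. The nearest genes were Potri.017G015100.1 and Potri.009G053200.1 for MYB134 (differences 0.00627 and 0.00695), Potri.001G166900.1 and Potri.010G138600.1 for MYB115 (0.0169 and 0.0250), and Potri.005G232400.1 and Potri.015G077900.1 for MYB182 (0.0299 and 0.0334). The measure is not scaled for the size of a gene's movement. A gene that moves much therefore stands far from a nearly constant one, whatever its shape. Between the lowest and highest library MYB134 moved 1.11-fold, MYB115 1.46-fold and MYB182 1.74-fold, and the list sum 2.34-fold. The places thus do not tell likeness of shape from likeness of size. With 4 libraries many genes have near-identical profiles, and this order is a description only.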

How the data were processed

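The authors deposited 3 values per gene and library. Per the file headers, they are CLC counts of unique and of total gene reads, and a DESeq normalised signal. The deposited signal equals the total reads times 1 constant per library. Aligner settings, genome build and annotation were not given in the sources used here. Groups and replicate numbers follow the sample titles; the file headers call MIR15 replicates 1 and 2 by the numbers 2 and 3. The members and lists were chosen with earlier results of these data known.

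The test on total gene reads used edgeR 4.0.16 with R 4.3.3 (filterByExpr, TMM, quasi-likelihood F test, two-sided, genotype as sole term), with Benjamini-Hochberg adjustment over 30975 genes; a gene is called at an adjusted p under 0.05. The SE and interval come from the F statistic. The fit was tested on simulated data. Read ratios had 0.5 reads added for the log2 difference and were tested by exact permutation over libraries; intervals are exact and cover counting error only. Alternatives were RLE factors, library total alone, no filter, a mean of 1 CPM, DESeq2 1.42.0, unique reads, the replicate block, each library left out and, for ratios, no reads added and the deposited signal. P-values of the fits rest on 2 libraries per group, unpaired in the main fit. In edgeR the spread of each gene is moderated towards that of the other genes. Genes were named by a fixed rule: the 3 members, the listed ID with most reads and that with the smallest p, 2 noted relatives, and the 2 nearest profiles per member. Parts of the rule that need names, proteins or tissue markers could not be filled.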

Additional observations from a re-analysis of the deposited data

How the results depend on the processing

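MYB134 and MYB115 kept their direction in all 11 alternatives and were called in none. Their log2 fold changes of MIR15 over WT ran from -0.15 to -0.08 and from -0.54 to -0.26. For both genes, both MIR15 libraries lay below both WT libraries, so leaving out 1 library could hardly turn the sign. The other alternatives refitted the same 4 libraries, so the kept direction is no independent support. MYB182 was called in none either, but its log2 fold change turned to 0.0213 when replicate numbers of the titles entered as a replicate block. Leaving out single libraries gave -0.36 to 0.44 for MYB182, and the cause was not tested. With single libraries left out, the log2 ratio difference ran from -0.57 to 0.30 for MYB134 to MYB182. It ran from -0.97 to 0.11 for MYB115 to MYB182 and from -0.61 to 0.28 for both activators to MYB182. For MYB115 to MYB134 it stayed between -0.39 and -0.18, where the groups did not overlap and the sign could not turn. Unique reads, no reads added, the deposited signal and the replicate block (MYB134 to MYB182: -0.14) left the ratios' directions as they were. These settings could hardly change a ratio, so they are no support for its direction. With equal group sizes the block returns the same difference of group means. The deposited signal's constant per library nearly cancels in a ratio, and almost no reads of the 3 regulators matched more than 1 place. Against 1 called gene in all, DESeq2 called 15, the replicate block 120 and unique reads 0 (768 at an unadjusted p under 0.05 in edgeR); leaving out single libraries gave 0 to 8. There the remaining library of a group borrows the spread of the other genotype. By the title numbers, same-numbered libraries deviated together (correlation over genes 0.246 from 2 pairs), which does not show that numbers pair the samples. The block and this value hold for the title numbers only: the file headers number the MIR15 libraries 2 and 3, which leaves 1 shared number. No pathway ID was called in any setting; without WT replicate 1, 17 of 20 had an unadjusted p under 0.05 in edgeR, against 6.35% of all tested genes, and without WT replicate 2, 6 had, against 2.02%. No scaling alternative moved the median of all genes by more than 0.02. MYB115 had the fewest reads of the 3 regulators, with 271 to 461 per library. The SE of its log2 fold change (0.23) was nevertheless smaller than that of MYB182 (0.30).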
